A study of Mus musculus with 8 samples.

Results

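The transcripts of the Rag GTPases and of the Ragulator complex were followed in 8 mouse livers of 2 genotypes. The set was defined by gene symbol, with earlier results of these data known. It held the Rag GTPases Rraga, Rragb, Rragc and Rragd and the Ragulator subunits Lamtor1, Lamtor2, Lamtor3, Lamtor4 and Lamtor5, 9 genes in all. The deposited table listed 8 of the 9 among its 14506 genes. Rragb was not analysed here. Of the 8 listed, 7 reached the mean of 10 normalized read counts needed for testing, as did 11174 of all genes; Rragd did not.

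Livers came from 4 Rragc +/+ mice and 4 Rragc S74N/+ mice. The S74N/+ mice carried 1 edited Rragc allele in every tissue, made with CRISPR-Cas9 in a C57BL/6 colony, that encodes an activating form of RagC; the other allele was wild type, and homozygous mice are not viable. Replicates 1, 2 and 3 of the +/+ group were 3 months old and replicate 4 was 2.5 months old; replicates 1 and 2 of the S74N/+ group were 3 months old, replicate 3 was 2.5 months and replicate 4 was 2 months. The libraries were made with a kit that reads the 3′ end of each transcript, so that levels of different genes are not scaled by transcript length, and the comparison asked whether the edited allele goes with a change in the transcript levels of the Rag and Ragulator machinery itself.

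Rag GTPases work as pairs, RagA or RagB with RagC or RagD, on the lysosomal surface. Ragulator, a pentamer anchored in the lysosomal membrane, holds them there. When amino acids are plentiful, RagA or RagB carries GTP and RagC or RagD carries GDP, and the pair recruits mTORC1, the kinase complex that drives growth and anabolism, to the lysosome. The S74N change in RagC favours the state without GTP and so mimics nutrient sufficiency.

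The reference sequence around the edited codon is shown because this codon defines the genotype and its place sets what the reads can tell of it. Per the paper, the edited allele has AAC there and further silent changes close by, which are not shown. Rragc lies on the plus strand of chromosome 4 (GRCm38, chr4:123917446-123936997, GENCODE M21) and has 7 exons in the transcript examined. Codon 74, serine in the reference, occupies chr4:123917753-123917755 in exon 1, in the coding region. The window below is the reference sequence of chr4:123917723-123917767, with codon 74 in capitals.
Rragc exon 1: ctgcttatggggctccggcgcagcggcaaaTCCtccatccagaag
The codon lies 2283 bases from the 3′ end of the transcript. Reads of the 3′ end do not cover it, so the Rragc level counts both alleles together and does not check the genotype labels.

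Promoters were searched for CACGTG, the core of the element bound by TFEB and TFE3, basic helix-loop-helix factors that lysosomal Rag GTPases keep under control. The motif reads the same on both strands. RefSeq promoters on GRCm38.p6, taken from 250 bases before to 50 bases after the annotated start, were at hand for 8 of the 9 genes; Lamtor3 had no entry. The motif was present in 4 of the 8, against 7.15% of all 32851 promoters in the table and 10.04% of the 10236 genes of the count table with a promoter. The sites of the measured genes are shown with 12 bases on either side and the motif in capitals. They lie on the plus strand at chr4:123917309-123917338 for Rragc, chr7:101905757-101905786 for Lamtor1, and chr5:138255350-138255379 and chr5:138255366-138255395 for Lamtor4.
Rragc, 112 bases before the start: ggtgattccgggCACGTGatagtaccactt
Lamtor1, 68 bases before the start: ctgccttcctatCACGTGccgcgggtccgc
Lamtor4, 120 bases before the start: gcagaaagttaaCACGTGaacagcttttca
Lamtor4, 104 bases before the start: tgaacagcttttCACGTGtaaaccaaacca
The Rragb promoter held 3 further matches. For Rraga, Rragd, Lamtor2 and Lamtor5 the search says only that these letters are not in the window, and a match is a description of sequence, not of binding.

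Sequencing depth ranged from 4313076 to 6632108 reads assigned to genes per liver. All 6 hepatocyte markers were listed at a mean of at least 10 normalized counts, and the summed level of the list was 254358 to 372502 in +/+ and 274910 to 464356 in S74N/+ livers. Sums of the Kupffer cell, sinusoidal endothelial, stellate, cholangiocyte, lymphocyte and neutrophil lists overlapped between the genotypes. A sum mostly reflects the most abundant genes of its list, so single markers can separate where the sums overlap. At a mean of at least 10 there were only 2 cholangiocyte, 1 lymphocyte and 2 neutrophil genes, so those sums say little. A kidney tubule list, with 4 of 6 genes listed and Kap alone at a mean of at least 10, summed to 94.5 to 204 in +/+ and 24.5 to 56.9 in S74N/+ livers; its part in the differences below was not tested. In RNA from whole liver, fewer cells of a type and less RNA per cell cannot be told apart.

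Levels within the complex spanned a wide range. Over all 8 livers, Lamtor1, the lipid-anchored subunit that wraps around the others and ties them to the membrane, had the highest mean at 713 normalized counts, the 91.6th percentile of all tested genes. Lamtor4 followed at 433, and it was below Lamtor1 in 7 of 8 livers. Lamtor2 had a mean of 166 and was below Lamtor4 in every liver. Lamtor5, at 129, was below Lamtor2 in 6 of 8 livers, so the order of these neighbours was not the same in all samples.

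The Rag GTPases were less abundant than most of their scaffold. Rragc had a mean of 80.3, near the middle of all tested genes at the 50.5th percentile, and was below Lamtor5 in 8 of 8 livers. Rraga averaged 51.3 and was below Rragc in 7 of 8 livers. Lamtor3, the least abundant Ragulator subunit, averaged 33.7 and was below Rraga in 6 of 8 livers. Rragd was last at 3.35, below Lamtor3 in every liver. Ragulator subunits enter the complex in equal numbers, as background, while their transcript levels were unequal. The Lamtor2 mean of 166 stood against 33.7 for its dimer partner Lamtor3, and the Lamtor4 mean of 433 against 129 for its partner Lamtor5.

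**Figure D1:**
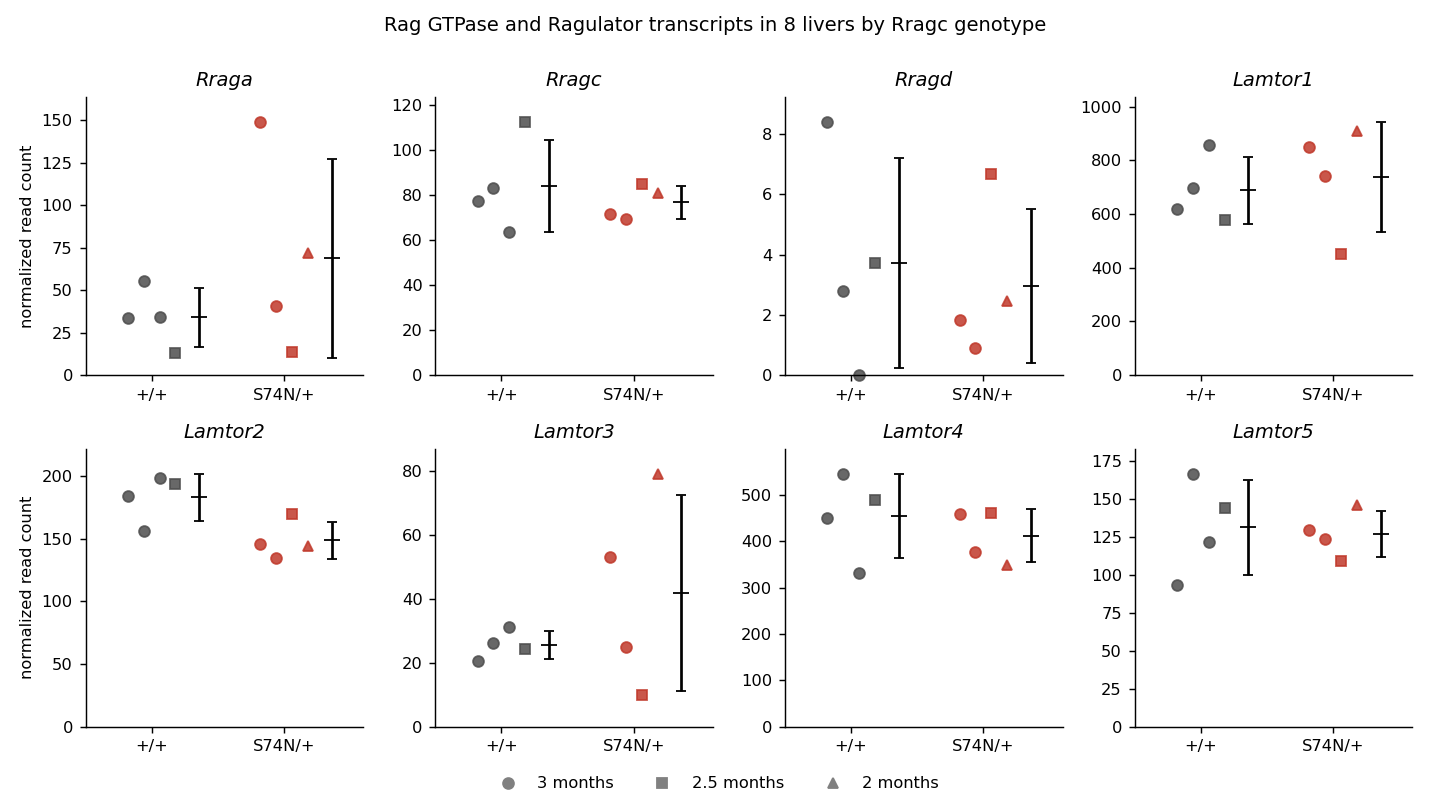
Normalized read counts (y axis, linear from 0, a separate scale per panel) of the 8 listed genes in each liver, by Rragc genotype. Points are livers, with the shape giving the age, and bars are the mean and SD of 4 livers. The genotypes overlap in every panel, and the widest scatter is that of Rraga, from 13.1 to 149, and Lamtor3, from 10.03 to 79.1.

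The transcript of the edited gene itself did not pass the test between the genotypes. Rragc was at 77.4, 83.2, 63.7 and 112 normalized counts in +/+ replicates 1 to 4 and at 71.6, 69.3, 84.7 and 80.8 in S74N/+ replicates 1 to 4. The 4 S74N/+ values all lay inside the +/+ range. Means were 84.1 ± 20.4 (SD, n = 4) and 76.6 ± 7.32 (SD, n = 4), a log2 fold change of -0.11 with a 95% interval of -0.65 to 0.43 (limma, adjusted p = 0.931). The interval corresponds to a level between 0.639 and 1.35 times that of the +/+ livers.

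Rraga encodes RagA, the partner of RagC that must carry GTP for mTORC1 recruitment. The gene has 1 exon, at chr4:86575668-86577285 on the plus strand. It was at 33.6, 55.2, 34.0 and 13.1 in the +/+ livers and at 149, 40.9, 13.4 and 71.8 in the S74N/+ livers. Both genotypes contained a liver near 13, and the highest values, in S74N/+ replicates 1 and 4, were above every +/+ liver. The mean was 33.9 ± 17.2 (SD, n = 4) in +/+ and 68.7 ± 58.5 (SD, n = 4) in S74N/+ livers, with a log2 fold change of 0.69 and a 95% interval of -0.65 to 2.04 (limma, adjusted p = 0.851). This was the largest difference among the tested Rag and Ragulator genes and also the least precise. Without S74N/+ replicate 3 the log2 fold change was 1.30 (limma, adjusted p = 0.275), without S74N/+ replicate 1 it was 0.17, and without +/+ replicate 4 it was 0.31. On the recovered reads it was 1.02 with both edgeR (adjusted p = 0.812) and DESeq2 (adjusted p = 0.884).

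The number of Rraga reads per Rragc read varied between livers. The ratio of normalized counts was 0.434, 0.663, 0.533 and 0.117 in the +/+ livers and 2.08, 0.590, 0.158 and 0.889 in the S74N/+ livers. Rraga exceeded Rragc in a single liver, S74N/+ replicate 1.

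Rragd, which encodes the alternative partner RagD and is itself a known target of TFEB, was near the limit of detection. The gene lies at chr4:32983037-33022180, plus strand. Its normalized counts were 8.39, 2.81, 0 and 3.74 in +/+ livers, from 9, 3, 0 and 4 reads. In S74N/+ livers they were 1.84, 0.889, 6.69 and 2.45, from 2, 1, 6 and 3 reads. The values of the genotypes interleave. A count of 0 allows a level of up to 3 reads, 4.24 normalized counts in +/+ replicate 3, and 3 reads amount to 2.45 to 4.24 over the 8 livers. The summed reads were 16 and 12, and over all livers Rragc was 23.99 times as abundant as Rragd. With no filter on low values, limma gave a log2 fold change of -0.06 with a 95% interval of -1.79 to 1.67 (adjusted p = 0.990), and DESeq2 on the reads gave -0.40 (SE 1.12, adjusted p = 0.971).

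Lamtor1 lies at chr7:101905904-101926675 on the plus strand, and overlaps an exon of Lrrc51 on the other strand; Rragc likewise overlaps 4930535I16Rik, and the authors counted reads by strand. Lamtor1 was at 618, 699, 859 and 578 normalized counts in the +/+ livers and at 850.2, 742, 451 and 909 in the S74N/+ livers. The lowest and the highest liver were both S74N/+. Means were 688 ± 124 and 738 ± 203 (SD, n = 4 each), with a log2 fold change of 0.068 and a 95% interval of -0.46 to 0.59 (limma, adjusted p = 0.959).

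Lamtor2 and Lamtor3 form a dimer inside Ragulator that also serves as a signalling scaffold on late endosomes. Lamtor2 lies at chr3:88549819-88553074 on the minus strand and Lamtor3 at chr3:137918506-137928900 on the plus strand. Lamtor2 was at 184, 156, 198 and 193 in the +/+ livers and at 146, 134, 169 and 144 in the S74N/+ livers. It came closest to a separation of the genotypes: 3 of 4 S74N/+ livers lay below every +/+ liver, and only S74N/+ replicate 3 overlapped. The means of 183 ± 18.7 and 148 ± 14.9 (SD, n = 4 each) gave a log2 fold change of -0.30 with a 95% interval of -0.73 to 0.14 (limma, adjusted p = 0.846), so the difference did not pass the test. Lamtor3 was at 20.5, 26.2, 31.1 and 24.3 in the +/+ livers and at 53.3, 24.9, 10.03 and 79.1 in the S74N/+ livers. The +/+ livers sat close together and the S74N/+ livers lay on both sides of them, with means of 25.5 ± 4.41 and 41.8 ± 30.7 (SD, n = 4 each). The log2 fold change was 0.35 with a 95% interval of -0.79 to 1.49 (limma, adjusted p = 0.894), and it was -0.07 without S74N/+ replicate 4 and 0.88 without S74N/+ replicate 3. On the recovered reads it was 0.73 with edgeR (adjusted p = 0.827) and 0.72 with DESeq2 (adjusted p = 0.893).

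Lamtor4 and Lamtor5 form the other dimer of the same fold. They lie at chr5:138255482-138259398 and chr3:107278858-107284082, both on the plus strand. Lamtor4 was at 449, 545, 331 and 489 in the +/+ livers and at 459, 377, 461 and 349 in the S74N/+ livers, all 4 within the +/+ range. Its log2 fold change was -0.13 with a 95% interval of -0.58 to 0.33 (limma, adjusted p = 0.902). Lamtor5 was at 93.2, 166, 122 and 144 in the +/+ livers and at 129, 124, 109 and 146 in the S74N/+ livers, again all within the +/+ range. Its log2 fold change was -0.02 with a 95% interval of -0.54 to 0.49 (limma, adjusted p = 0.986). In the last 500 bases of the Lamtor5 transcript, 14.6% of 50-base stretches are shared with Gm15190. The effect of this on the Lamtor5 count was not tested. For the other listed genes of the set no stretch was shared.

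**Figure D2:**
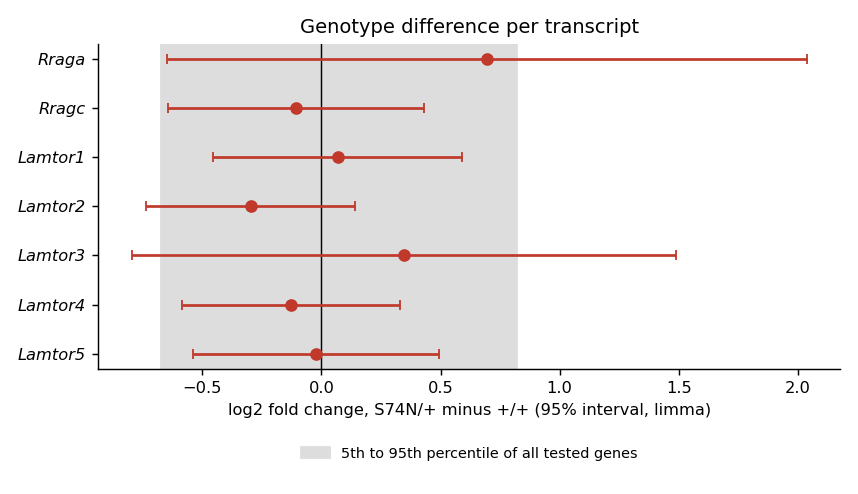
Log2 fold change of normalized counts, S74N/+ minus +/+, for the 7 tested genes (points) with 95% intervals from limma (bars); the grey band spans the 5th to 95th percentile of all tested genes, -0.67 to 0.82. All 7 intervals cross 0, and those of Rraga and Lamtor3 are the widest.

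Across the set, no gene passed an adjusted p of 0.05, where 0.00895% of all tested genes did (limma). At an unadjusted p under 0.05, again 0 of 7 passed with limma, against 5.17% of all genes, 2.37% higher and 2.8% lower in S74N/+ livers. Tests on the recovered read counts gave the same counts of 0: the background was 5.53% unadjusted and 0.00895% adjusted with edgeR, and 5.76% and 0.0414% with DESeq2, which also took in Rragd. In 0 of the 8 listed genes did the genotypes fail to overlap, against 2.94% of tested genes, 1.64% with the lower values in S74N/+ livers. Of the 7 tested genes, 3 had higher and 4 lower means on the log2 scale, and the median log2 fold change was -0.02, beside 0.01 over all genes. The genes with a promoter CACGTG had log2 fold changes of -0.11 (Rragc), 0.068 (Lamtor1) and -0.13 (Lamtor4), and those searched without a match had 0.69 (Rraga), -0.30 (Lamtor2) and -0.02 (Lamtor5).

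The spread between livers differed from gene to gene. Rraga ranged 11.4-fold over the 8 livers and Lamtor3 7.89-fold. The other tested genes ranged between 1.48-fold for Lamtor2 and 2.01-fold for Lamtor1. Rraga rested on 12 to 162 reads per liver and Lamtor3 on 9 to 97. The SD within genotypes was 1.17 for Rraga on the log2 scale, where counting would give 0.27, and it was larger than in 96.7% of the 4028 genes whose mean lay between 0.5 and 2 times that of Rraga. For Lamtor3 the SD was 0.91, where counting would give 0.30, at the 87.6th percentile of 3843 such genes. Lamtor2 was at the other end, with an SD of 0.15 against 0.11 from counting, at the 2.39th percentile, and Rragc had an SD of 0.26 at the 10.8th percentile.

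**Figure D3:**
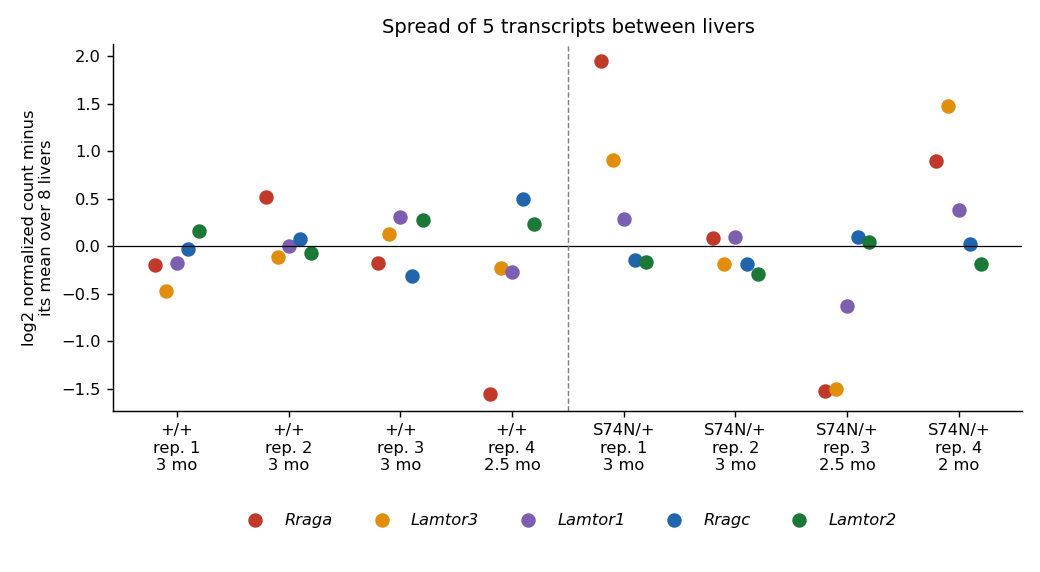
Log2 normalized count of 5 genes in each liver, minus the mean of that gene over the 8 livers (y axis); the livers are on the x axis with genotype, replicate and age. Rraga and Lamtor3 lie above their means in S74N/+ replicates 1 and 4 and far below them in S74N/+ replicate 3. Lamtor1 is lowest in S74N/+ replicate 3, while Rraga is lowest in +/+ replicate 4. Rragc and Lamtor2 vary least.

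Rraga and Lamtor3 shared their highest livers, S74N/+ replicates 1 and 4, which also had the second highest and the highest Lamtor1 value among the S74N/+ livers. The 6 hepatocyte markers did not move together in these 2 livers. Tat, which encodes tyrosine aminotransferase, was highest there, at 886 and 1520 normalized counts against 77.3 to 284 in the other livers, as was Cps1, the entry enzyme of the urea cycle, at 3006 and 6977 against 1024 to 2317. Apoa1, the main protein of high-density lipoprotein, was lowest there, at 53450.0 and 62047 against 72410.0 to 91895. Alb and Ttr were highest in S74N/+ replicate 4 and Serpina1c in S74N/+ replicate 1, while the other of the 2 livers was within the range of the rest. The part of these differences in the Rraga and Lamtor3 values was not tested. The livers differ in age as well, replicate 4 being the only mouse of 2 months.

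The lowest Rraga values were those of the 2 mice aged 2.5 months, 13.1 in the +/+ and 13.4 in the S74N/+ liver, while the 6 other livers were between 33.6 and 149. A fit with genotype and age as terms, chosen after these values were seen, put Rraga at -1.97 on the log2 scale at 2.5 against 3 months (SE 0.47, 95% interval -2.97 to -0.97, limma adjusted p = 0.0285). In that fit 3.76% of all tested genes passed, and 3.41% passed with the lower level at 2.5 months. Rraga alone of the 7 tested genes passed; Lamtor1 was at -0.55 (limma, adjusted p = 0.171), Lamtor3 at -0.87 (adjusted p = 0.334) and Rragc at 0.43 (adjusted p = 0.430). The age rests on 1 liver of each genotype, and age and whatever else these livers share cannot be told apart. The call was lost when +/+ replicate 2 or S74N/+ replicate 1 was left out. Leaving out +/+ replicate 4 or S74N/+ replicate 3 kept 1 liver of 2.5 months. The log2 values were then -2.46 and -1.53, the extremes of the 8 fits. Leaving out S74N/+ replicate 4, the only mouse of 2 months, could not move the value (-1.97).

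A list of 69 other genes of the same pathway was examined beside the set, grouped by role into regulators of the Rags (GATOR1, GATOR2, KICSTOR, the amino acid sensors, folliculin and its partners and the Rag ubiquitin ligases), the vacuolar ATPase that docks with Ragulator, mTORC1 with Rheb and its substrates, the MiT-TFE factors, the BORC complex that binds Ragulator, and 3 genes of signalling proteins tied to the Lamtor2-Lamtor3 dimer, which are counted but not described. Of the 69, 67 were listed and 65 tested. None passed an adjusted p of 0.05 with limma, edgeR or DESeq2. At an unadjusted p under 0.05, 3 of 65 passed, or 4.62% against 5.17% of all genes, and all 3 were lower in S74N/+ livers. The median log2 fold change of the list was -0.0023, with 32 higher and 33 lower.

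Tfeb, the lysosomal gene activator that active RagC helps keep in the cytoplasm, was at 88.6, 44.9, 59.4 and 56.1 normalized counts in the +/+ livers and at 33.1, 43.5, 27.9 and 33.4 in the S74N/+ livers. All S74N/+ values were below all +/+ values, with a log2 fold change of -0.81 (SE 0.30, limma adjusted p = 0.846). Atp6ap1, an accessory subunit of the vacuolar ATPase, had means of 747 ± 173 and 475 ± 154 (SD, n = 4 each; log2 fold change -0.68, limma adjusted p = 0.846). Mios, a GATOR2 subunit, had means of 78.8 ± 18.4 and 49.0 ± 28.5 (SD, n = 4 each; log2 fold change -0.80, limma adjusted p = 0.846). None of these differences survived the adjustment over all genes. Tfe3, the close relative of Tfeb, was at 203 ± 36.7 and 151 ± 45.0 (SD, n = 4 each; log2 fold change -0.46) and did not pass at either threshold. The genotypes also failed to overlap in Atp6v0d1, a membrane subunit of the vacuolar ATPase named after its values were seen, at 289 ± 36.3 and 249 ± 7.57 (SD, n = 4 each). With Tfeb, this made 2 of the 65 tested genes of the list without overlap, against 2.94% of all tested genes. Leaving out S74N/+ replicate 3 raised the count at an unadjusted p under 0.05 from 3 to 11 of the list and from 578 to 1682 of all genes.

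**Figure D4:**
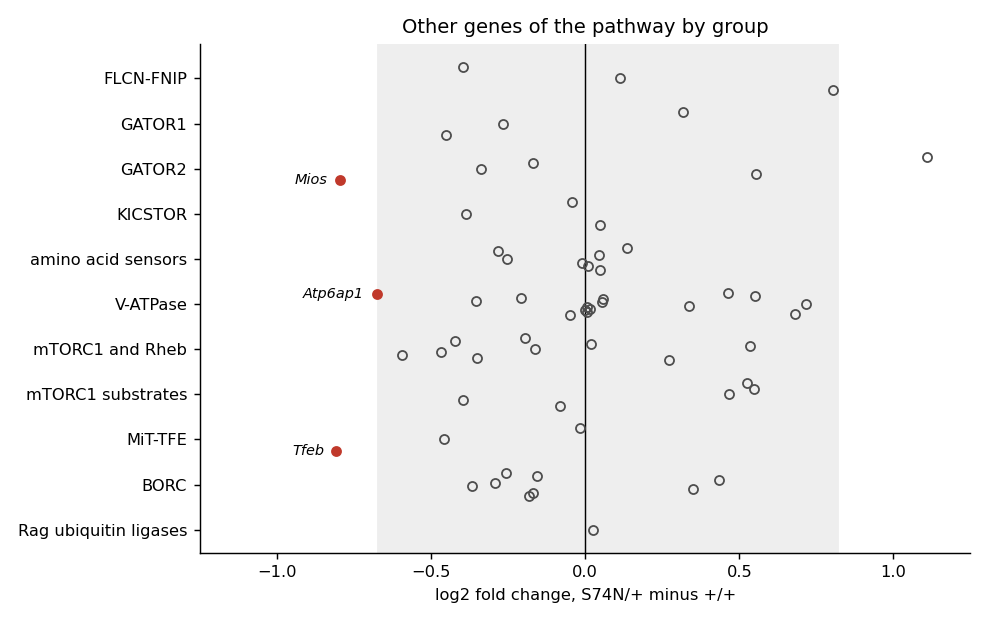
Log2 fold change, S74N/+ minus +/+ (x axis), of 62 other tested pathway genes in 11 groups (points), with a row per group; the grey band is the 5th to 95th percentile of all tested genes, and filled points are the 3 genes with an unadjusted limma p under 0.05. Most points lie inside the band, and Mios, Atp6ap1 and Tfeb are the filled ones, all to the left of 0.

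By group, the vacuolar ATPase had 10 of 15 genes higher and 5 lower, and BORC had 2 higher and 6 lower. The 3 MiT-TFE genes were all on the lower side by value, between -0.81 and -0.02. The mTORC1 and Rheb group also holds their negative regulators, among them the TSC complex, and had 3 genes higher and 6 lower. GATOR2 had 2 higher and 3 lower. The mTORC1 substrates had 3 higher and 2 lower, and the amino acid sensors 4 higher and 3 lower. Folliculin and its partners had 2 higher and 1 lower, and GATOR1 and KICSTOR each had 1 higher and 2 lower. The 1 tested Rag ubiquitin ligase was higher. Of all tested genes, 5737 were higher and 5437 lower, and the splits by group were not tested.

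The genes whose pattern over the 8 livers was most like that of Rragc were Xpo1, a nuclear export receptor (Pearson r = 0.95, Spearman rho = 0.98), Naxe, an epimerase that repairs damaged NAD(P)H (0.95 and 0.86), and Clcc1, a chloride channel of the endoplasmic reticulum (0.95 and 0.93). They were picked as the highest r among all tested genes, the 8 livers share their library preparation and scaling, and r is given as a description.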

How the data were processed

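Polyadenylated RNA of 8 livers, 4 per genotype, was sequenced from the 3′ end with strand kept. Per the labels and the study's methods, the authors checked reads with FastQC 0.11.7, aligned them to GRCm38 with TopHat2 2.0.10, Bowtie 1.0.0 and SAMtools 0.1.19, counted them per gene with HTSeq 0.6.1 and normalized the counts with DESeq2. The deposited values are a signal: read counts divided by a size factor per library. Every value came out as a whole number of reads (tolerance 0.01), 100% of values, and reads per liver were 4313076 to 6632108. No 2 libraries agreed within sampling noise (chi-square per degree of freedom 14.6 to 101 over 28 pairs). The labels name the libraries as separate samples, so p-values measure the spread between these samples.

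Genes with a mean of at least 10 normalized counts were tested with limma 3.58.1 in R 4.3.3 (trended variance) on log2(normalized count + 1), without covariates, with Benjamini-Hochberg adjustment over 11174 genes; this scale understates changes of low genes. edgeR 4.0.16 (quasi-likelihood) and DESeq2 1.42.0 on the recovered reads were alternatives and called 1 and 6 genes of all tested. The fits were also tested on simulated data. The floor of 3 reads covers counting error only. Locations come from GENCODE M21 and promoters from RefSeq. All measured genes of the set were named; of the pathway list, those with an unadjusted p under 0.05, Tfeb and Tfe3; and the 3 genes most like Rragc. Outside this rule, Atp6v0d1, Kap and the hepatocyte markers were named after their values were seen. The set and the lists were chosen with earlier results of these data known. Other settings tried were the pseudocount, the filter, the scaling, age as a term and leaving out each liver. The genes tied to the Lamtor2-Lamtor3 dimer are not reported here one by one.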

Additional observations from a re-analysis of the deposited data

How the results depend on the processing

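No Rag or Ragulator gene, and none of the other pathway genes, passed an adjusted p of 0.05 under any of the 12 other settings or the 8 fits without a liver. Rraga stayed higher in S74N/+ livers (0.65 to 1.02, the top with edgeR and DESeq2, and 0.17 to 1.30 without a liver), and Lamtor2 (-0.35 to -0.29, and -0.37 to -0.25) and Lamtor4 (-0.14 to -0.06, and -0.27 to -0.03) stayed lower. Of the members, 4 changed sign in at least 1 fit: the cause was not tested. In the fit that took age as a factor, Lamtor1 was at -0.0028 and Lamtor3, at 0.35 in the report, at -0.0024. In that fit S74N/+ replicate 4, the only mouse of 2 months, does not enter the genotype difference. In 3-month-old mice alone Lamtor5 was at 0.033. Without 1 liver, Rragc ranged from -0.23 to 0.039 (above 0 without +/+ replicate 4), Lamtor1 from -0.049 to 0.29 (below 0 without +/+ replicate 4 or S74N/+ replicate 1 or 4), Lamtor3 from -0.075 to 0.88 (below 0 without S74N/+ replicate 4) and Lamtor5 from -0.18 to 0.10 (above 0 without +/+ replicate 2 or 4 or S74N/+ replicate 3). At an unadjusted p under 0.05, 0 to 1 members passed without a liver (Rraga, without S74N/+ replicate 3), and 1 to 11 other pathway genes, against 3. The pathway count was 1 without +/+ replicate 1 or 4 or S74N/+ replicate 4, 5 without +/+ replicate 3 and 11 without S74N/+ replicate 3. The counts over all tested genes moved as well. They were 334, 435 and 312 in the 3 fits with a pathway count of 1. Without +/+ replicate 3 the count was 757 of 11164, and without S74N/+ replicate 3 it was 1682 of 11182, against 578 of 11174 with all livers. A mean of at least 50 left 1 of the 3 pathway genes: Tfeb and Lamtor3 were no longer tested, and Mios, still at -0.80, had an unadjusted p of 0.0591 (limma). The Rraga difference at 2.5 against 3 months, and its alternatives, were chosen after seeing the data; it lost its call without the variance trend (-1.97, adjusted p = 0.153) and without genotype as a term (-1.90, adjusted p = 0.0504), and ranged from -2.46 to -1.53 without 1 liver. No scaling moved the median of all genes by over 0.1. No paired analysis was possible because numbers were given by accession order and tie no mice of the 2 genotypes together. Depth limits Rragd, at 0 to 9 reads per liver.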
